A study of Rattus norvegicus with 9 samples.

Results

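The genes described here are the glucocorticoid receptor gene Nr3c1 and 5 genes that the activated receptor classically induces, Fkbp5, Tsc22d3, Zbtb16, Ddit4 and Sgk1, measured in sorted retinal microglia of diabetic and control rats. They were taken by symbol from a table of 28343 genes. All 6 had a row, and 5 of them passed the filter on low counts that left 11748 genes for testing. Zbtb16 did not pass. Microglia are the resident macrophages of the retina. The rats were Dark Agouti, an inbred strain, and the diabetic group received streptozotocin, which kills the insulin-producing beta cells, at 55 mg/kg when 8 to 10 weeks old. The control group received citrate buffer, and both groups had fasted for 12 hours before the injection. Per the labels, diabetic rats also received 2 units of insulin when their blood glucose passed 30 mmol/l, and retinas of both groups were collected 4 weeks after the injection. CD11b-positive cells were sorted from papain-digested whole retina, and their RNA was preamplified. The gate also admits border and blood myeloid cells. The hour of tissue collection, corticosterone levels and the sex of the rats are not stated in the labels.

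Glucocorticoids (corticosterone in rats) enter the cell and bind a receptor that is held in the cytoplasm by a chaperone complex. The bound receptor moves to the nucleus and raises or lowers transcription. Its targets include its own inhibitors and many anti-inflammatory genes, and in macrophages it also lowers cytokine transcription. Plasma corticosterone follows a daily rhythm and rises with stress. Several target genes also answer to other signals, such as low energy, osmotic change and the stress of cell isolation.

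There were 5 control libraries (numbered 1, 3, 4, 5 and 6) and 4 diabetic libraries (1, 2, 4 and 5), with 6228756 to 11332823 counts each, lowest in diabetic 4. Values are CPM, counts normalised to the library total and scaled by TMM factors, and means carry the SD over libraries. The labels count 5 control and 4 diabetic rats, so each library was taken as 1 rat. In bulk RNA, fewer cells of a type and less RNA per cell cannot be told apart. A list of 14 microglia markers summed to 35222 to 40117 CPM in control and 35269.9 to 37440 CPM in diabetic libraries, with Siglech at 0 counts in all. A list of immediate-early and stress genes known to respond to cell isolation, without genes of any glucocorticoid list, summed to 3274, 6231, 6258, 20752 and 26933 CPM in controls 3, 1, 5, 4 and 6, and to 9326 to 16032 CPM in diabetic libraries. Controls 4 and 6 had the highest sums, and values that turn or move by over 1.5 times without them are given both ways. Differences are log2 fold changes of diabetic minus control from edgeR's quasi-likelihood test, with p-values adjusted by Benjamini-Hochberg over all 11748 genes and a threshold of 0.05.

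None of the 5 tested genes passed the threshold, against 0.0681% of all tested genes, and none had groups that did not overlap, against 8.44% of all tested genes. At an unadjusted p under 0.05 the count was also 0 of 5, against 18.9% of all tested genes. No tested member was called by DESeq2's Wald test or limma-voom, or under any of the 19 alternatives run. Over those alternatives an unadjusted p fell under 0.05 for Sgk1 in 6, Nr3c1 in 2, Tsc22d3 in 1, Fkbp5 in 1 and Ddit4 in 0. Fold changes were above 0 for Fkbp5, Tsc22d3 and Ddit4 and below 0 for Nr3c1 and Sgk1, so 3 of 5 lay above 0, against 50.3% of all tested genes. Their median was 0.067 against 0.0017 for all tested genes.

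**Figure D1:**
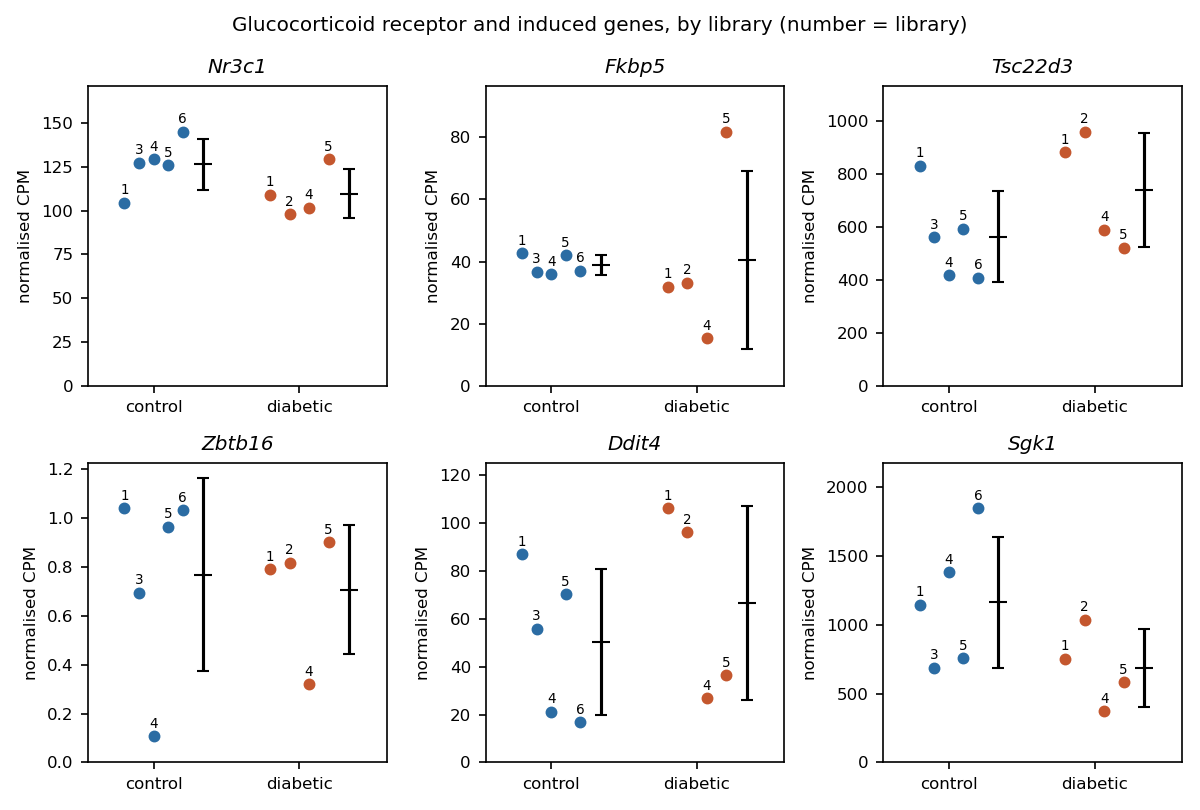
Normalised CPM (vertical axes, starting at 0) of the 6 genes in each library, with the library number above each point, controls in blue and diabetic libraries in orange. Black marks are the mean and SD of 5 control and 4 diabetic libraries; the groups overlap for Nr3c1, Tsc22d3, Zbtb16, Ddit4 and Sgk1, and for Fkbp5 the diabetic libraries lie on both sides of the controls.

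Nr3c1 encodes the glucocorticoid receptor itself, a nuclear receptor and transcription factor. Its level was 104, 127, 129, 126 and 145 CPM in controls 1, 3, 4, 5 and 6, and 109, 97.9, 102 and 129 CPM in diabetic 1, 2, 4 and 5. Control 1 lay with the lower diabetic libraries and diabetic 5 with the controls, so the groups overlapped. The means were 126 ± 14.4 CPM (SD, n = 5) and 110 ± 14.1 CPM (SD, n = 4), with a log2 fold change of -0.20 (SE 0.12) and an edgeR adjusted p of 0.342. The 95% interval of the difference ran from -0.45 to 0.04. It was -0.13 without controls 4 and 6, -0.08 without normalization factors, and -0.30 to -0.15 when 1 library was left out. The symbol stands at more than 1 place in the Ensembl annotation of the assemblies. ENSRNOG00000014096 lies on Rnor6 chromosome 18, 31728373 to 31749647, minus strand, with 7 exons in its transcript. ENSRNOG00000048800, of a single exon, lies at 32669427 to 32670665 on the same strand, and its reference transcript had a TPM of 0 in each of the 7 libraries that list it. Whether the counts combine both is not given.

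Fkbp5 encodes FKBP51, a co-chaperone that lowers the receptor's affinity for hormone and so closes a feedback loop. It had 42.7, 36.8, 36.0, 42.1 and 37.0 CPM in controls 1, 3, 4, 5 and 6, and 31.9, 33.2, 15.5 and 81.8 CPM in diabetic 1, 2, 4 and 5. The controls were almost level while the diabetic libraries were spread, with 3 below all controls and 1 above all of them. The highest library was 1.19 times the lowest among controls and 5.29 times the lowest among diabetic libraries. This difference in spread was not tested. The extremes rest on 97 counts in diabetic 4, the shallowest library, and 817 counts in diabetic 5. The means were 38.9 ± 3.19 CPM (SD, n = 5) and 40.6 ± 28.6 CPM (SD, n = 4), and the log2 fold change was 0.067 (SE 0.41, edgeR adjusted p = 0.940), with a 95% interval from -0.73 to 0.86. It turned to -0.53 without diabetic 5 (edgeR adjusted p = 0.222), and was 0.33 without diabetic 4 (adjusted p = 0.621) and 0.0043 without controls 4 and 6, and adjusted p-values ran from 0.222 to 0.998 over its alternatives. ENSRNOG00000022523, at Rnor6 chromosome 20, 7976713 to 8019020, minus strand, was assembled as the 10-exon reference transcript in 1 library.

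Tsc22d3 encodes GILZ, a leucine zipper protein that binds and restrains inflammatory transcription factors and is a standard readout of receptor activity in macrophages. It had 833, 564, 419, 595 and 409 CPM in controls 1, 3, 4, 5 and 6, and 884, 961, 591 and 523 CPM in diabetic 1, 2, 4 and 5. Diabetic 1 and 2 lay above all controls and the other two lay among them. The means were 564 ± 172 CPM (SD, n = 5) and 740 ± 215 CPM (SD, n = 4). The log2 fold change was 0.39 (SE 0.27, edgeR adjusted p = 0.410) with a 95% interval from -0.15 to 0.93. The lowest values, 419 and 409 CPM, were those of controls 4 and 6, which also had the highest sums of the cell isolation list. Without those libraries the log2 fold change was 0.15, and with that list as a covariate it was 0.42 (edgeR adjusted p = 0.240). It was 0.24 without diabetic 2 and 0.57 without control 1. The cause of these shifts was not tested.

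Tsc22d3 has several start sites, and the deposited assemblies were searched for models of each. The reference transcript at ENSRNOG00000056135 (Rnor6 chromosome X, 111884295 to 111887906, minus strand, 3 exons) spans 3612 bases and was assembled in 8 of 9 libraries. In RefSeq's GRCr8 table the start site nearest the 3′ end of the gene lies 3625 bases from that end. All 9 libraries had assembled models, on either strand, ending between 100 bases before and 200 bases beyond the start of that reference transcript. Models reaching further upstream were found in controls 3 and 5 and in diabetic 2, with summed TPM of 2.67, 12.9 and 2.50. TPM is not used for levels here, because models on the opposite strand over the same exons held 164 to 397 TPM in every library, beside 15.7 to 251 TPM on the gene's own strand. The windows of 250 bases before and 50 after the start were searched in RefSeq's promoters on both strands for the core of the glucocorticoid response element, ACANNNTGT, and for the full element, which is this core with AGA before it and TCT after it. The full element stood in 5 of 33469 promoters of this length (0.0149%) and the core in 6.86%. The table held 10 promoters for 5 of the 6 genes, 0 with the full element and 1 with the core, 183 bases before one of the upstream start sites of Tsc22d3. A match is a description of letters, and its absence says nothing of elements outside these windows or of inexact ones. The first sequence below is the start site of the short transcript that was assembled, the second the upstream site with the core in capitals, and the third that of Ddit4, whose level followed that of Tsc22d3, all on the minus strand of GRCr8 and read 5′ to 3′ (chrX:109009985-109010284, chrX:109065381-109065680 and chr20:28436988-28437287).
Tsc22d3, short transcript: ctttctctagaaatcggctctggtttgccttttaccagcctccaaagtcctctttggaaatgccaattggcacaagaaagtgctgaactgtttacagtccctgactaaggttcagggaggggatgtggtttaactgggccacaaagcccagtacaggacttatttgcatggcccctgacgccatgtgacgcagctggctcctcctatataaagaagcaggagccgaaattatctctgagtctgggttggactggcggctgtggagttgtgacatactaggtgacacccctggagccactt
Tsc22d3, upstream start: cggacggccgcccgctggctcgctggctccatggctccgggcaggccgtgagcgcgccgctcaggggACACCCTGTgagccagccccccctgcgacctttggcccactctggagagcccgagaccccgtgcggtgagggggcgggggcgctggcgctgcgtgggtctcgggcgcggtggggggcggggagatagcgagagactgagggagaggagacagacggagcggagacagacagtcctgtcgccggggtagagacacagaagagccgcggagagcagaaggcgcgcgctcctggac
Ddit4: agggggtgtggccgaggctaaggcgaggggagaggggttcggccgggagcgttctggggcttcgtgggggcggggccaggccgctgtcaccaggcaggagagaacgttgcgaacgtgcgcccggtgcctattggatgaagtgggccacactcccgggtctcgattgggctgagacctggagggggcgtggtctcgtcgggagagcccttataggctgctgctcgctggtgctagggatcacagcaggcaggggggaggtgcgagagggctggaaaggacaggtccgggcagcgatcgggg

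Ddit4 encodes REDD1, an inhibitor of the growth kinase mTORC1 that glucocorticoids, low oxygen and low energy all induce. Its level was 87.0, 55.9, 21.2, 70.3 and 16.8 CPM in controls 1, 3, 4, 5 and 6, and 106, 96.2, 26.8 and 36.5 CPM in diabetic 1, 2, 4 and 5. Each group held high and low libraries, with the highest 5.19 times the lowest among controls and 3.96 times among diabetic libraries. The means were 50.2 ± 30.6 CPM (SD, n = 5) and 66.4 ± 40.5 CPM (SD, n = 4). The log2 fold change of 0.40 (SE 0.66, edgeR adjusted p = 0.751) had a 95% interval from -0.89 to 1.69, wide enough to hold a fall or a rise. It turned to -0.10 without controls 4 and 6, and with the cell isolation list as a covariate it was 0.62 (edgeR adjusted p = 0.491). It was 0.084 without diabetic 1, 0.17 without diabetic 2, 0.21 without control 4, 0.19 without control 6, 0.66 without diabetic 4 and 0.70 without control 1. ENSRNOG00000057078 lies on Rnor6 chromosome 20, 29509289 to 29511382, minus strand, with 3 exons.

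Sgk1 encodes a serum- and glucocorticoid-induced kinase that regulates ion channels and transporters and also responds to osmotic change and growth factors. It had 1146, 690.3, 1386, 756 and 1849 CPM in controls 1, 3, 4, 5 and 6, and 754, 1039, 375 and 583 CPM in diabetic 1, 2, 4 and 5. Controls 4 and 6 were the highest of all libraries, and diabetic 4 and 5 lay below all controls. The means were 1165 ± 477 CPM (SD, n = 5) and 688 ± 281 CPM (SD, n = 4). The log2 fold change was -0.76 (SE 0.44, edgeR adjusted p = 0.317) with a 95% interval from -1.62 to 0.10. The difference was -0.34 without controls 4 and 6 (edgeR adjusted p = 0.726), the libraries with the highest cell isolation list, and with that list as a covariate it was -0.70 (adjusted p = 0.174). It ran from -1.03 without diabetic 2 to -0.53 without control 6 when 1 library was left out, and it stayed below 0 under all 19 alternatives without passing the threshold under any. ENSRNOG00000011815 lies on Rnor6 chromosome 1, and its 3 assembled reference transcripts, each of 12 exons, share the end at 24185456 on the minus strand and start at 24190896, 24191908 and 24193567. The one starting at 24190896 had 69.8 to 187 TPM in the 7 libraries where it was assembled. The others had at most 3.30 TPM (assembled in 4 libraries) and 8.28 TPM (in 5 libraries). Values of opposite-strand models are not given for this gene.

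Zbtb16 encodes PLZF, a zinc finger repressor that glucocorticoids strongly induce in many tissues. It had 11, 8, 1, 9 and 8 counts in controls 1, 3, 4, 5 and 6, and 8, 8, 2 and 9 counts in diabetic 1, 2, 4 and 5, and so 0.108 to 1.04 CPM in control and 0.319 to 0.901 CPM in diabetic libraries. Libraries of both groups lay together, near the limit of detection, and all 4 diabetic libraries were within the range of the controls. In the same test without a filter on low counts its log2 fold change was -0.09 (edgeR adjusted p = 0.951). That value rests on 1 to 11 counts per library.

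**Figure D2:**
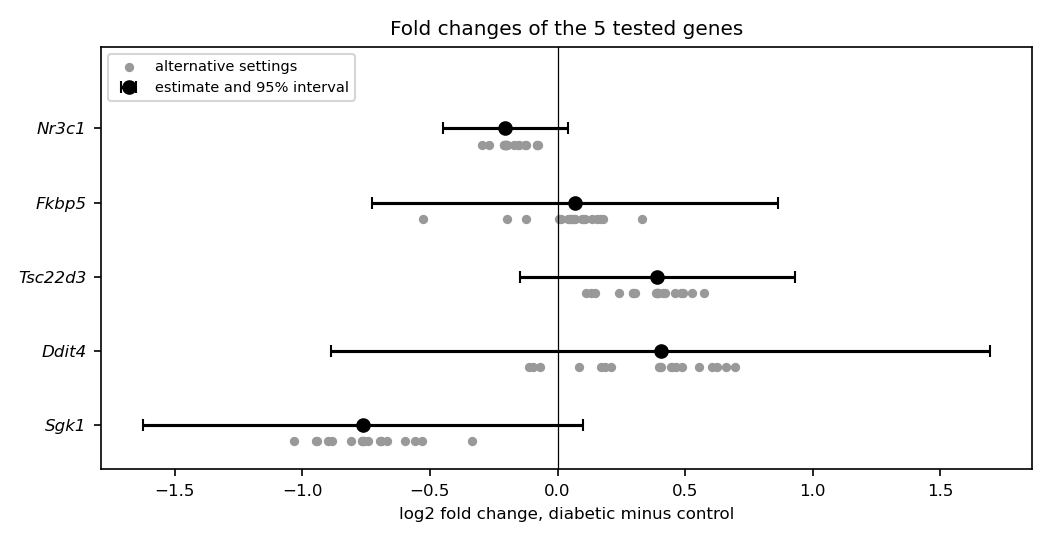
Log2 fold change of diabetic minus control (horizontal axis) of the 5 tested genes, with black points for the estimate, bars for its 95% interval and grey points for the 19 alternative settings. Every interval includes 0; the points of Nr3c1 (-0.30 to -0.08) and Sgk1 (-1.03 to -0.34) stay below 0, those of Tsc22d3 (0.11 to 0.57) above it, and those of Fkbp5 and Ddit4 lie on both sides.

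Levels were compared between genes only per kilobase of the longest expressed reference transcript. In control libraries Sgk1 stood at 462 ± 189 CPM per kilobase (SD, n = 5) and Tsc22d3 at 291 ± 88.7, followed by Ddit4 at 29.2 ± 17.8, Nr3c1 at 24.9 ± 2.84 and Fkbp5 at 11.5 ± 0.943. In diabetic libraries Tsc22d3 came first with 382 ± 111 CPM per kilobase (SD, n = 4) and Sgk1 second with 273 ± 111, with Ddit4 at 38.6 ± 23.6, Nr3c1 at 21.6 ± 2.77 and Fkbp5 at 12.0 ± 8.45. Library values of Sgk1 and Tsc22d3 overlapped in both groups, as did those of Ddit4 and Nr3c1. Those of Nr3c1 and Fkbp5 overlapped in the diabetic group, where diabetic 5 reached 24.1 CPM per kilobase of Fkbp5, but not in controls (20.6 to 28.5 against 10.6 to 12.6). By these counts Tsc22d3 and Sgk1 were the most abundant of the 5 genes compared. No library of either gene lay as low as any library of Ddit4, Nr3c1 or Fkbp5. The strand setting of the counts is not stated, so those of Tsc22d3 may include reads of the opposite strand. Other target genes were not compared per kilobase.

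Whether the genes moved together between libraries was examined on log2 CPM over all 9 libraries, with exact permutation tests over pairings, two-sided and adjusted over the 10 pairs of tested members. Tsc22d3 and Ddit4 rose and fell together, with Pearson's r of 0.91 (exact permutation p = 0.00113, adjusted 0.0113) and Spearman's rho of 0.93 (exact permutation p = 0.00075, adjusted 0.0075). Both were high in control 1 and diabetic 1 and 2 and low in controls 4 and 6. Without diabetic 1 and 2, the libraries farthest from the median of Tsc22d3, r was 0.86, and with group means subtracted it was 0.93. Leaving out any 1 library gave 0.88 to 0.94. Over the 7 libraries without controls 4 and 6, r was 0.81 (exact permutation p = 0.0365, adjusted 0.183), which did not pass the threshold. A correlation within 1 group would have fewer than 6 libraries and is not given.

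Nr3c1 ran opposite to Tsc22d3, with r of -0.85 (exact permutation p = 0.00501, adjusted 0.0250) and rho of -0.87 (exact permutation p = 0.00451, adjusted 0.0225). Libraries with more GILZ transcript had less receptor transcript, from 961 and 97.9 CPM in diabetic 2 to 409 and 145 CPM in control 6. The value was -0.93 without diabetic 2 and 4, the libraries farthest from the median of Nr3c1, and -0.80 with group means subtracted. Without controls 4 and 6 it was -0.75 (exact permutation p = 0.0687, adjusted 0.1996). It depended on the scaling: without normalization factors r was -0.47 (exact permutation p = 0.19996, adjusted 0.667), while that of Tsc22d3 and Ddit4 was 0.93. The TMM factor was lowest in control 6 (0.839) and control 4 (0.927) and 1.01 to 1.07 in the other libraries.

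The remaining 8 pairs had adjusted exact permutation p-values of 0.278 to 0.795 for r and 0.222 to 0.776 for rho. Fkbp5 was not correlated beyond the threshold with any other member: r was -0.14 with Tsc22d3, 0.11 with Ddit4, 0.26 with Sgk1 and 0.48 with Nr3c1. These values depended on single libraries. Leaving out 1 library gave -0.27 to -0.00025 with Tsc22d3, -0.21 to 0.30 with Ddit4 and 0.29 to 0.58 with Nr3c1. With Sgk1 the range was -0.46 (without diabetic 4) to 0.70 (without diabetic 5). In diabetic 5, which had the most Fkbp5, Tsc22d3 (523 CPM) was the lowest of its group. Ddit4 and Sgk1 had an r of -0.18 over all libraries (exact permutation p = 0.635, adjusted 0.794) and 0.88 without controls 4 and 6 (exact permutation p = 0.00714, adjusted 0.0714), the libraries farthest from the median of Ddit4, which did not pass the threshold either. Those controls had the least Ddit4 and the most Sgk1.

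**Figure D3:**
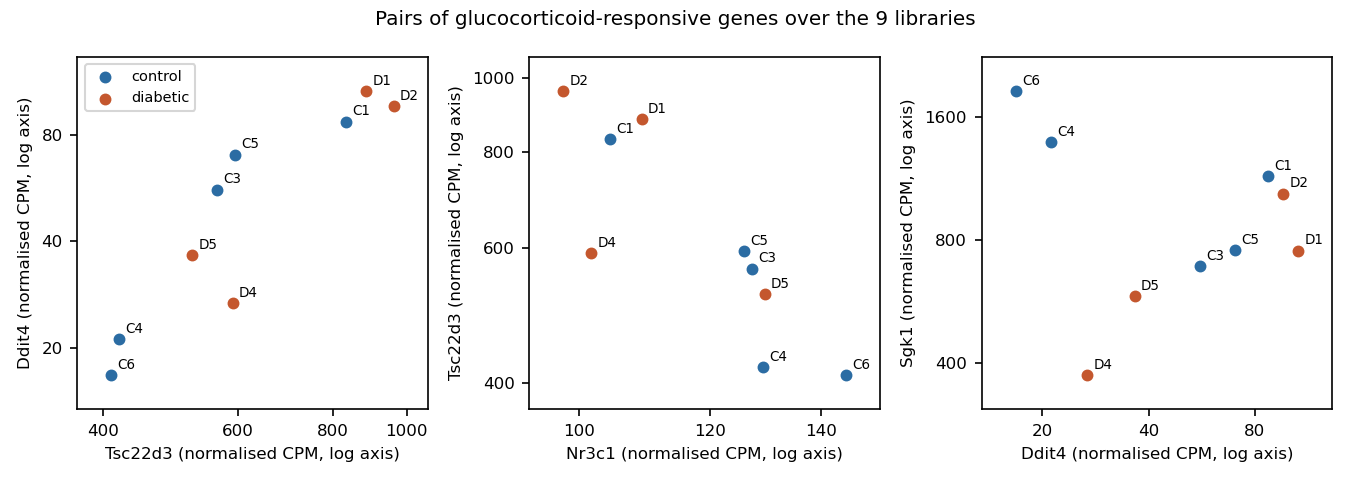
Each panel plots 2 genes against each other in normalised CPM on log axes, 1 point per library (C control in blue, D diabetic in orange, with the library number). Tsc22d3 and Ddit4 rise together (r 0.91), Tsc22d3 falls as Nr3c1 rises (r -0.85), and in the right panel controls 4 and 6 have the least Ddit4 and the most Sgk1.

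**Figure D4:**
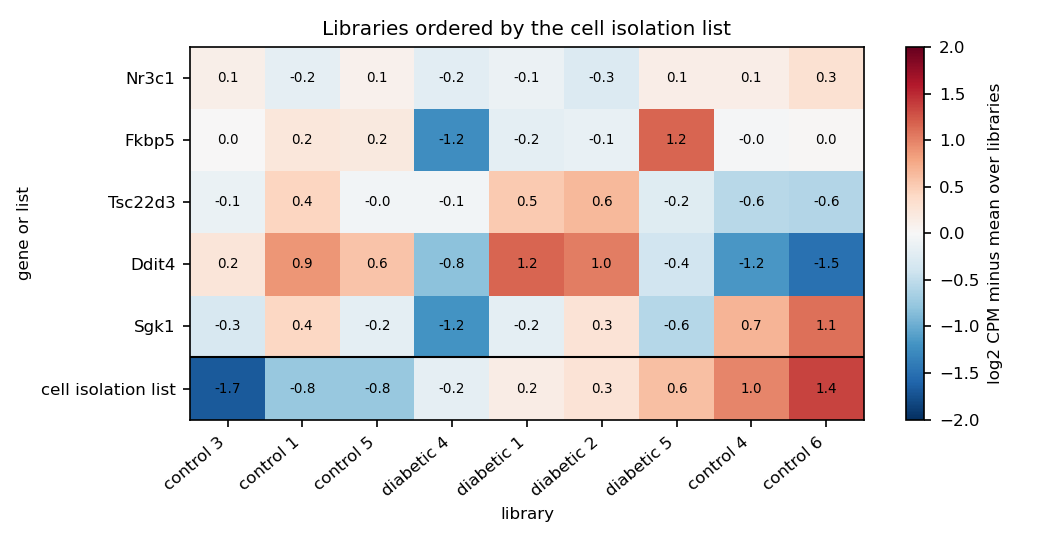
Log2 CPM of the 5 tested genes minus each gene's mean over libraries (colour and printed values), with libraries ordered by the summed cell isolation list in the bottom row. Controls 4 and 6, at the right, combine low Tsc22d3 and Ddit4 with high Sgk1, and Fkbp5 departs from its mean mainly in diabetic 4 and 5.

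The genes around the receptor came from 4 further lists. None of their tested genes passed the adjusted threshold. The first list holds the mineralocorticoid receptor, the chaperones that fold the receptor and the enzymes that activate or inactivate the hormone. Of its 12 genes 8 were tested, 6 had a fold change below 0 (50.3% of all tested genes lay above 0), and the median was -0.25. Stip1, Ptges3 and Fkbp4 had an unadjusted p under 0.05, all in the lower direction, against 10% of all tested genes. Stip1, which hands client proteins from HSP70 to HSP90, averaged 199 ± 73.2 CPM (SD, n = 5) in controls and 116 ± 15.7 CPM (SD, n = 4) under diabetes (log2 fold change -0.78, edgeR adjusted p = 0.153), with 261 and 292 CPM in controls 4 and 6 and 136 to 168 in the other controls. Its log2 fold change without those controls was -0.35 (edgeR adjusted p = 0.220). Ptges3, the p23 co-chaperone, was at 73.7 ± 10.2 and 57.3 ± 4.36 CPM (a difference of -0.36 in log2, edgeR adjusted p = 0.151). Fkbp4, which encodes FKBP52, the counterpart of FKBP51 that carries the receptor to the nucleus, was at 366 ± 32.3 and 303 ± 20.5 CPM (a difference of -0.27 in log2, edgeR adjusted p = 0.158). For each of these 3 genes 3 of 4 diabetic libraries lay below all controls. Hsp90ab1, an HSP90 gene, was at 1238 and 1350.0 CPM in controls 4 and 6 and at 502 to 737 CPM in the other libraries. Its log2 fold change was -0.61, and -0.098 without those controls.

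Transcripts of the hormone's other receptor and of the enzyme gene Hsd11b1 were scarce. Nr3c2, the mineralocorticoid receptor, which binds corticosterone with higher affinity, had 20 to 52 counts per library, with a mean of 4.08 ± 0.961 CPM (SD, n = 5) in controls and 3.62 ± 0.526 CPM (SD, n = 4) under diabetes (edgeR adjusted p = 0.723). Hsd11b1, which regenerates active hormone inside cells, had 3 counts in control 1, 2 in control 3, 1 in diabetic 1, 1 in diabetic 2, 3 in diabetic 4 and none in the other 4 libraries. There, a count of 0 allows up to 0.3003 to 0.387 CPM, for counting error only. Hsp90aa1 and Hspa8 had 0 to 6 counts per library and were not tested. Both are usually abundant and have near-identical copies in the genome, so their counts are uncertain.

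The coregulators, proteins the receptor recruits to activate or repress genes, were all tested. At an unadjusted p under 0.05 there were 0 of 11, against 18.9% of all tested genes. Of the 11 genes, 9 had a fold change below 0 (50.3% of all tested genes lay above 0), with a median of -0.13. Among them were Crebbp, a histone acetyltransferase (log2 fold change -0.15), Ncoa1, a coactivator (-0.26), and Ncor1, a corepressor (-0.16), with edgeR adjusted p-values of 0.379 to 0.421. These fold changes were -0.092, -0.12 and -0.083 without controls 4 and 6.

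Other glucocorticoid-induced genes split. Of 36 genes 27 were tested, 15 with a fold change above and 12 below 0, and the median was 0.086. At an unadjusted p under 0.05 there were 5 higher genes, against 8.94% of all tested genes, and 2 lower genes, against 10%. Txnip, which binds thioredoxin and also responds to glucose, was at 493, 527, 397, 484 and 347 CPM in controls 1, 3, 4, 5 and 6, and 667, 733, 734 and 790 CPM in diabetic 1, 2, 4 and 5. All diabetic libraries lay above all controls (groups did not overlap for 8.44% of all tested genes), with a log2 fold change of 0.70 (SE 0.18, edgeR adjusted p = 0.0608). Anxa1, annexin A1, a mediator of the anti-inflammatory action of glucocorticoids, was at 27.3 ± 5.63 CPM (SD, n = 5) and 47.2 ± 4.02 CPM (SD, n = 4). Its groups did not overlap either, and its log2 fold change was 0.79 (SE 0.21, edgeR adjusted p = 0.0620). Both passed under 5 of 19 alternatives, over which the edgeR, DESeq2 or limma adjusted p ranged between 0.00022 and 0.348 for Txnip and between 0.00081 and 0.319 for Anxa1.

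Cd163, the haptoglobin-haemoglobin scavenger receptor, was at 57.4 ± 22.1 CPM (SD, n = 5) and 168 ± 64.4 CPM (SD, n = 4), with a log2 fold change of 1.55 (SE 0.47, edgeR adjusted p = 0.0895) and no overlap. It is also a marker of border macrophages. The other 11 genes of the blood and border myeloid list, of which 10 had a row, summed to 309 to 671 CPM in control and 502 to 1109 CPM in diabetic libraries, with Ccr2 at 0 in all, and their part in the value was not tested. Arrdc2, an arrestin-domain gene, was at 35.0 ± 3.14 and 48.4 ± 7.59 CPM, again without overlap (log2 fold change 0.47, edgeR adjusted p = 0.107). Chosen after their values were seen, as the rest of those at an unadjusted p under 0.05, were Cebpd, a transcription factor (4.70 and 8.07 CPM), Mertk, a receptor for apoptotic cells (926 ± 121 and 698 ± 65.7 CPM), and Glul, glutamine synthetase (1213 ± 66.5 and 1081 ± 28.7 CPM). For Mertk and Glul all diabetic libraries lay below all controls. The edgeR adjusted p-values of these 3 genes were 0.149, 0.110 and 0.249. Glul is also a Muller glia gene, and the other 11 genes of that list summed to 11267 to 16380 CPM in control and 11154 to 12977 CPM in diabetic libraries.

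Rapid target genes that are widely used as readouts did not follow one direction. Per1, a clock gene, was at 17.2 ± 4.11 CPM (SD, n = 5) and 15.2 ± 7.07 CPM (SD, n = 4), with 5.74 CPM in diabetic 4. Klf9, a transcription factor, was at 5.22 ± 2.66 and 6.86 ± 2.51 CPM. Dusp1, a phosphatase of MAP kinases that is also on the cell isolation list, spanned 679 to 5323 CPM among controls and 1826 to 3091 CPM among diabetic libraries. EdgeR adjusted p-values of these 3 genes were 0.802, 0.558 and 0.999, and the signs of Per1 and Dusp1 turned under other settings. Without controls 4 and 6 the log2 fold changes of Per1, Klf9 and Dusp1 were 0.067, 0.076 and 0.89, against -0.16, 0.39 and 0.0028 over all libraries.

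The inflammatory genes that glucocorticoids repress had a median log2 fold change of -0.92, with 11 of 13 tested genes below 0 and 0 at an unadjusted p under 0.05. Of all tested genes, 50.3% lay above 0 and 18.9% had an unadjusted p under 0.05. Controls 4 and 6 stood apart in the 4 genes named here, which had the smallest p-values of the repressed list. The pattern was not examined in the rest of that list. Il1a, an interleukin 1 gene, was at 1686 and 3221 CPM there, at 21.6 to 128 CPM in the other controls and at 31.3 to 246 CPM in diabetic libraries. Il1b was at 2672 and 6392 CPM there and at 56.5 to 460.2 CPM in the other 7 libraries, and Icam1, an adhesion molecule, at 3131 and 5544 CPM against 160.5 to 624 CPM. Without controls 4 and 6 the log2 fold changes of Il1a, Il1b, Icam1 and Cd86, a costimulatory molecule, were 0.90, 1.16, 0.34 and 0.14 instead of -3.13, -2.56, -2.35 and -0.49. Controls 4 and 6 had the lowest Tsc22d3 and Ddit4. They also had the highest Sgk1 (1386 and 1849 CPM) and Dusp1 (3546 and 5323 CPM), so the induced genes did not share one direction in these libraries. The cause was not tested.

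**Figure D5:**
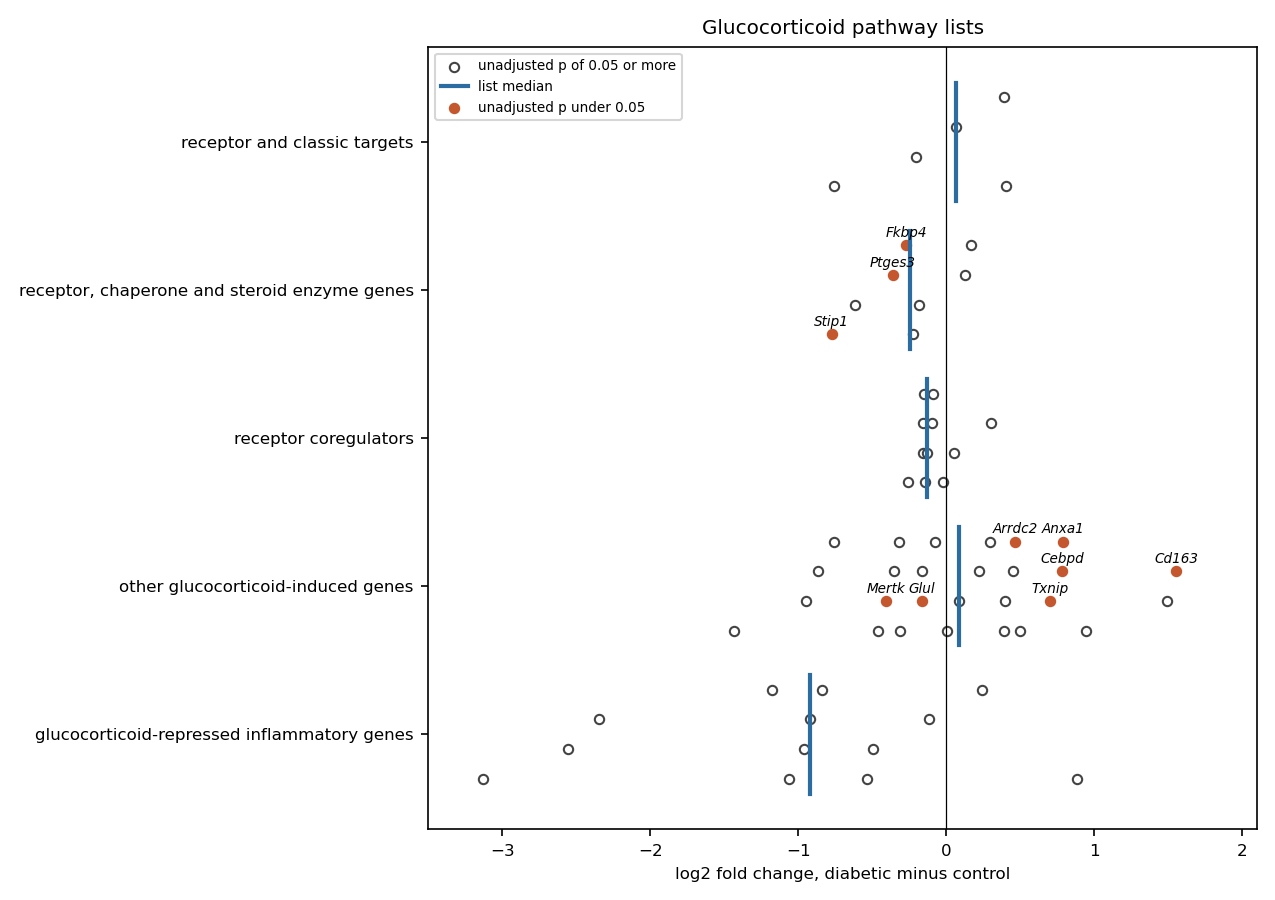
Log2 fold change of diabetic minus control (horizontal axis) of every tested gene of the 5 lists, 1 point per gene with vertical position only separating points, filled and named where the unadjusted p is under 0.05, with list medians as blue bars. Medians run from -0.92 in the repressed inflammatory genes to 0.086 in the other induced genes, and no gene passes the adjusted threshold.

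In the authors' deposited table, log2 fold changes were -0.08 for Nr3c1, 0.18 for Fkbp5, 0.49 for Tsc22d3, 0.48 for Ddit4 and -0.60 for Sgk1. The edgeR fit without normalization factors gave -0.08, 0.18, 0.49, 0.49 and -0.60. The authors' deposited table gave these 5 genes adjusted p-values of 0.376 to 0.855, and Zbtb16 is not among its 12069 genes.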

How the data were processed

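RNA of CD11b-sorted retinal cells was sequenced in 9 libraries, 5 control and 4 diabetic, grouped by titles and treatment labels. The authors deposited raw counts per gene symbol. The submitters' processing notes name TopHat2 2.0.14, StringTie 1.2.4, edgeR and the build Rnor_6.0. The counting program, its strand setting and the treatment of reads shared by gene copies are not stated there, so overlapping, antisense and duplicated genes are uncertain. The authors' deposited comparison table gives log2 fold changes, p-values and adjusted p-values without a stated model. Transcript assemblies with TPM values, normalized within each library, were deposited by the authors and gave coordinates and lengths, on Rnor6 per the file headers. Preamplified reads carry no molecular identifiers, so limits for a count of 0 (3 counts) cover counting error only.

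Counts were filtered with filterByExpr (minimum count 10, minimum total 15), given TMM scaling and analysed with the robust quasi-likelihood test of edgeR 4.0.16 in R 4.3.3. Each SE was derived from the log2 fold change and the normal quantile matching its p-value, and the 95% interval is 1.96 SE on either side. Log2 CPM for correlations used a prior count of 2. The same scripts were tested on simulated data. Totals of 6228756 to 11332823 counts left rare transcripts such as Zbtb16 untested. The members and gene lists were chosen with earlier results of these data known. The genes named are all members, the 4 smallest p-values of each other list, Nr3c2, Hsd11b1, Fkbp4, Per1, Dusp1, Klf9 and Cx3cr1, and the 3 genes most like each tested member, except 1 gene that is not reported here. The alternatives were other scalings, no filter, DESeq2 1.42.0, limma-voom (limma 3.58.1), a replicate block, the cell isolation list as a covariate and leaving out each library. Leaving out controls 4 and 6, and the unblocked fit on the libraries of the block, were added after seeing the data. Promoter sequences are RefSeq's, on GRCr8.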

Additional observations from a re-analysis of the deposited data

How the results depend on the processing

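Members' fold changes kept their direction and their side of the threshold in 89 of 95 results under alternatives, and 6 reversed. Fkbp5 turned to -0.12 with limma-voom, -0.20 with the replicate block and -0.53 without diabetic 5. Ddit4 turned to -0.11 with the replicate block, -0.069 on the same 6 libraries without it and -0.10 without controls 4 and 6. Without controls 4 and 6 the log2 fold changes of Il1a, Il1b, Icam1, Cd86 and Per1 turned to 0.90, 1.16, 0.34, 0.14 and 0.067, and that of Cx3cr1, a microglia gene at 0.13 over all libraries, to -0.036. Leaving out 1 library gave -0.53 to 0.33 for Fkbp5, -0.38 to 0.094 for Per1 (turned without diabetic 4) and -0.24 to 0.43 for Dusp1, which was 0.89 without controls 4 and 6. Dusp1, at 0.0028, turned to -0.0020 with DESeq2 and to -0.05, -0.24, -0.16, -0.07 and -0.09 without controls 1, 3 and 5 and diabetic 1 and 2. The cause was not tested.

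Over all genes, 8 were called (5 higher, 3 lower), against 31 with upper-quartile factors (27 higher, 4 lower), 29 with no factors (28 higher, 1 lower), 42 with no filter (29 higher, 13 lower), 598 with DESeq2 (281 higher, 317 lower), 4 with limma-voom and 1007 with the cell isolation list as a covariate (379 higher, 628 lower). No factors moved the median of all genes from 0.0017 to 0.12. Leaving out 1 library gave 0 to 75 calls, 75 without control 1, 1 without control 3 or 5, 2 without diabetic 2, and 0 without control 4, diabetic 1 or diabetic 4 (1686, 1793 and 1528 at an unadjusted p under 0.05). Without controls 4 and 6, edgeR called 0 (1775 unadjusted). Pathway genes called were 0 in edgeR (10 unadjusted), 2 with upper-quartile factors and 2 with no filter (Anxa1 and Txnip each time), 1 with no factors (Anxa1), 6 with DESeq2 (those and Arrdc2, Cd163, Mertk and Stip1) and 8 with the covariate (also Hsp90ab1 and Icam1), and 0 to 1 when 1 library was left out (Txnip without control 1). Of 2 pairs of members that correlated, 1 passed with no normalization factors and 0 without controls 4 and 6. Without those controls 2 of 10 pairs had an unadjusted exact permutation p under 0.05, Tsc22d3 with Ddit4 and Ddit4 with Sgk1. Ddit4 with Sgk1 had not correlated beyond the threshold over all libraries, and Nr3c1 with Tsc22d3, which had, was not under 0.05 there.

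Replicate numbers were not taken as pairs in the main fit. Deviations of same-numbered libraries correlated at 0.20, -0.11 and 0.02 for numbers 1, 4 and 5. Those of differently numbered libraries are not given, so these values cannot decide whether the numbers pair libraries. The fit with the number as a block called 0 genes (1150 unadjusted) and 0 pathway genes, and the unblocked fit of the same libraries also called 0 (1249 unadjusted). Zbtb16 and Hsd11b1 had at most 11 and 3 counts per library.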

Other observations

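The genes whose log2 CPM followed each tested gene most closely over the 9 libraries are given as a description, since the highest of 11748 correlations is a selected value and all genes share the libraries and their scaling. Nr3c1 was followed most closely by Uhrf1bp1l (r 0.99), Ddx21, an RNA helicase (0.98), and B3galnt2, a glycosyltransferase (0.97). Those nearest Fkbp5 were Aars, alanyl-tRNA synthetase (0.96), Dpyd, which degrades pyrimidines (0.94), and Uri1, a prefoldin-like chaperone (0.93). For Tsc22d3 they were Fitm2, a lipid droplet protein (0.97), Pomt2, a mannosyltransferase (0.96), and Agpat2, an enzyme of lipid synthesis (0.95). Ddit4 was nearest to Abhd15 (0.95), Haus8, a subunit of the augmin complex (0.95), and Zfp961 (0.94), and Sgk1 to Herpud1, a gene of the endoplasmic reticulum stress response (0.96), Dnah17, a dynein chain (0.94), and Matr3, a nuclear matrix protein (0.94).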
